A study of Zea mays with 6 samples.

Results

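The genes described here are those for the synthesis, conjugation, transport and perception of auxin in maize (Zea mays) leaf, and for the response to it. They were found by words in the gene names and descriptions of the deposited table, such as auxin, yucca, PIN-formed, Aux/IAA, SAUR and GH3. The search found 249 of the table's 45953 rows. By role they comprised 15 synthesis genes, 23 genes of conjugation and breakdown, 19 transport genes, 40 Aux/IAA genes, 39 auxin response factor (ARF) genes, 73 SAUR genes and 40 others. Leaf RNA had been sequenced in 6 libraries. The LW group held 3 libraries of droughted plants that negative pressure irrigation supplied without interruption, a method in which soil draws its water from a reservoir kept below atmospheric pressure. The CW group held 3 libraries of drip-irrigated plants whose soil was moist. Watering method and soil water thus changed together. The sources used here give neither the cultivar nor the plants' age or which leaf was taken, and all libraries are labelled as leaf.

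Auxin, chiefly indole-3-acetic acid (IAA), is made from tryptophan by an aminotransferase and then a YUCCA monooxygenase. GH3 enzymes and glucosyltransferases bind it to amino acids or sugar, hydrolases free it again, and AUX/LAX, PIN and ABCB proteins carry it into and out of cells. Inside the cell, auxin joins F-box receptors to the Aux/IAA repressors, which are then degraded, and the ARF transcription factors they held back can act on targets that include SAUR and Aux/IAA genes. In leaves the hormone is known for its part in growth, vein formation and blade polarity.

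Few auxin genes passed the test for a difference between the groups, and those that did were spread over most steps of the pathway. Of 139 members with enough counts to be tested, 6 were higher in LW and 1 was lower at an adjusted p under 0.05 in edgeR's quasi-likelihood test. The 6 were 3 YUCCA genes, an IAA-amino acid hydrolase, PIN-formed protein3 and ARF-transcription factor 3, and the 1 was Aux/IAA-transcription factor 36. The higher calls made up 4.32% of the tested members, against 2.84% of all 24704 tested genes, and the corresponding background for lower calls was 2.40%. Without adjustment, 23 members (16.5%) were higher and 12 (8.63%) lower at a p under 0.05, against 13.3% and 11.4% of all tested genes. In 29 members (20.9%) every LW value lay above every CW value, against 19.7% of all tested genes, and in 13 members (9.35%) every LW value lay below, against 14.9%. The median log2 fold change of the tested members, LW over CW, was 0.17, beside 0.06 for all tested genes. As a set, these genes thus stood near the background.

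Estimated counts per library ran from 42927751 to 84084375, all LW libraries but LW replicate 1 being deeper than every CW library. CW libraries held a count for 120 to 138 of the 249 members and LW libraries for 149 to 170. The calls rest on all libraries together: left out in turn, each library other than CW replicate 3 left no auxin gene called, in fits that called 0 to 172 genes higher over the whole table. CW replicate 3 stood apart from the other CW libraries, with Pearson correlations of log2 levels across genes of 0.907 and 0.905 to them, against 0.938 between those. Without it, 17 members (12.2%) were higher and 5 (3.6%) lower, including all 7 named above, in a fit that called 6.79% of all genes higher and 5.21% lower. A gene's levels in different libraries are given in CPM, counts per 1000000 of a library's TMM-scaled size, and different genes are compared by FPKM, a value per gene length. In bulk leaf RNA, fewer cells of a type and less RNA per cell cannot be told apart.

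**Figure D1:**
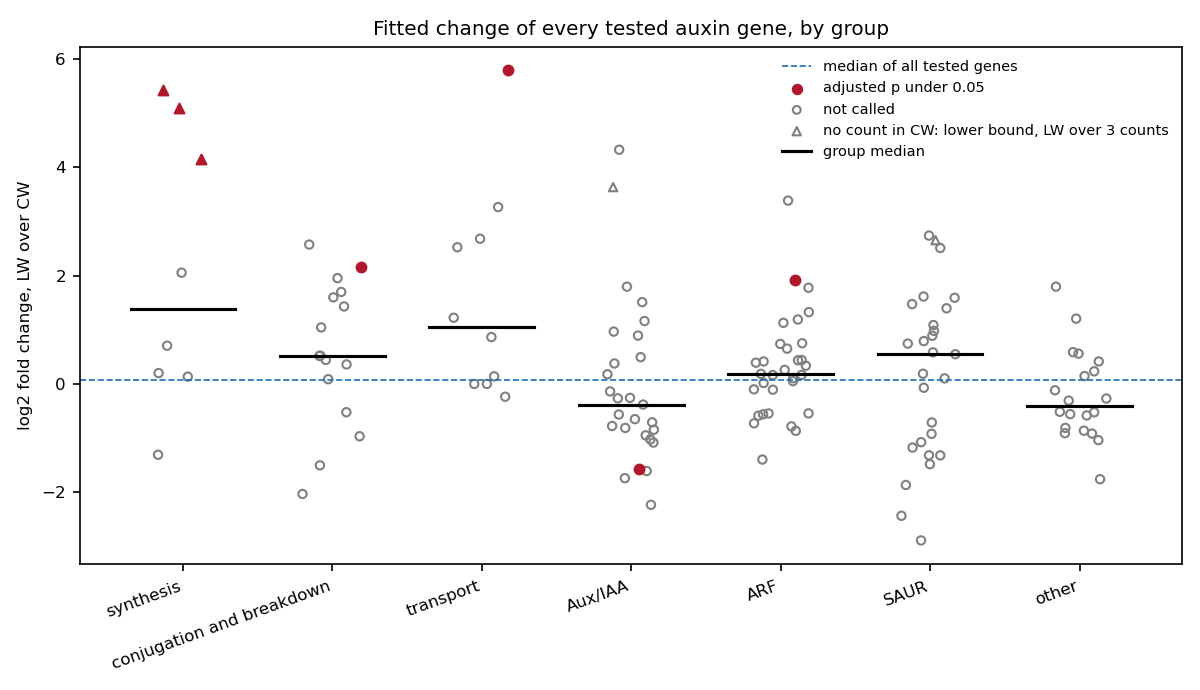
Each point is 1 tested auxin gene, placed by its role and by its log2 fold change, LW over CW (y axis). Red points passed the test, black bars are group medians and the dashed line is the median of all tested genes, 0.06. Triangles mark genes with no count in CW, drawn at a lower bound. Medians lie above the line for synthesis (1.38), transport (1.04), SAUR (0.55), conjugation and breakdown (0.52) and ARF (0.18), and below it for Aux/IAA (-0.39) and the others (-0.42). Some medians move widely: synthesis to 5.17 without CW replicate 3, and transport to 2.53 and SAUR to 1.53 with no filter on low counts.

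Of the synthesis genes, 3 that had no count in CW were called higher in LW. YUCCA enzymes convert indole-3-pyruvate to IAA, the last step of the main route. Of 15 YUCCA genes, 8 were tested, 3 were higher in LW, none was lower and 5 did not pass. All 3 that rose had no count in any CW library, so they passed the filter on low counts through LW alone, and the share of 3 in 8 tested rests on that filter. With no filter, 2 of 10 tested were called higher, as were 2.26% of all genes. A gene described as YUCCA2 (Zm00001d039323, chromosome 3, 1839047 to 1842858) stood at 3.18, 3.47 and 1.82 CPM in LW replicates 1 to 3, from 209, 317 and 174 counts. With 3 counts in each CW library as the floor, its mean was at least 42.9-fold higher in LW (edgeR adjusted p = 0.0284). Yucca2 (Zm00001d025005, chromosome 10, 99217386 to 99219471) stood at 3.03, 2.46 and 1.25 CPM in LW, at least 34.2-fold above that floor (edgeR adjusted p = 0.0322). Yucca6 (Zm00001d008255, chromosome 8, 3114456 to 3117313) followed with 1.96, 0.668 and 0.877 CPM, at least 17.8-fold above it (edgeR adjusted p = 0.0484, but 0.0540 with no filter on low counts). These YUCCA genes were thus absent from the CW counts and present at a low level in every LW library. Since the deposited counts are estimates, the floor may be too low.

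The YUCCA gene with the highest level, yucca8 (Zm00001d011764, mean FPKM 1.78), did not follow them. Its CPM was 5.60, 5.60 and 2.68 in CW and 4.28, 4.80 and 6.11 in LW, so the groups overlapped (log2 fold change 0.13, SE 0.44, edgeR adjusted p = 0.886). It was the only YUCCA gene with a mean FPKM of at least 1, and it held 30.3% of the FPKM of all YUCCA genes. Yucca7 (Zm00001d027759), named after its values were seen, had no count in CW replicates 1 and 2, 1.34 CPM in CW replicate 3 and 1.48 to 2.42 CPM in LW (edgeR adjusted p = 0.538). Yucca4 (Zm00001d004467), named likewise, was the only tested YUCCA gene with a negative fitted change, at 1.57 ± 0.615 CPM in CW and 0.629 ± 0.352 in LW (SD, n = 3 each; edgeR adjusted p = 0.367). Summed over the group, CW libraries held 7.99 to 9.75 CPM and LW libraries 14.4 to 17.4 CPM, without overlap, at 1.88 times the CW mean. The LW sums include the called genes that had no CW count, and without those genes the sums of the groups overlap.

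**Figure D2:**
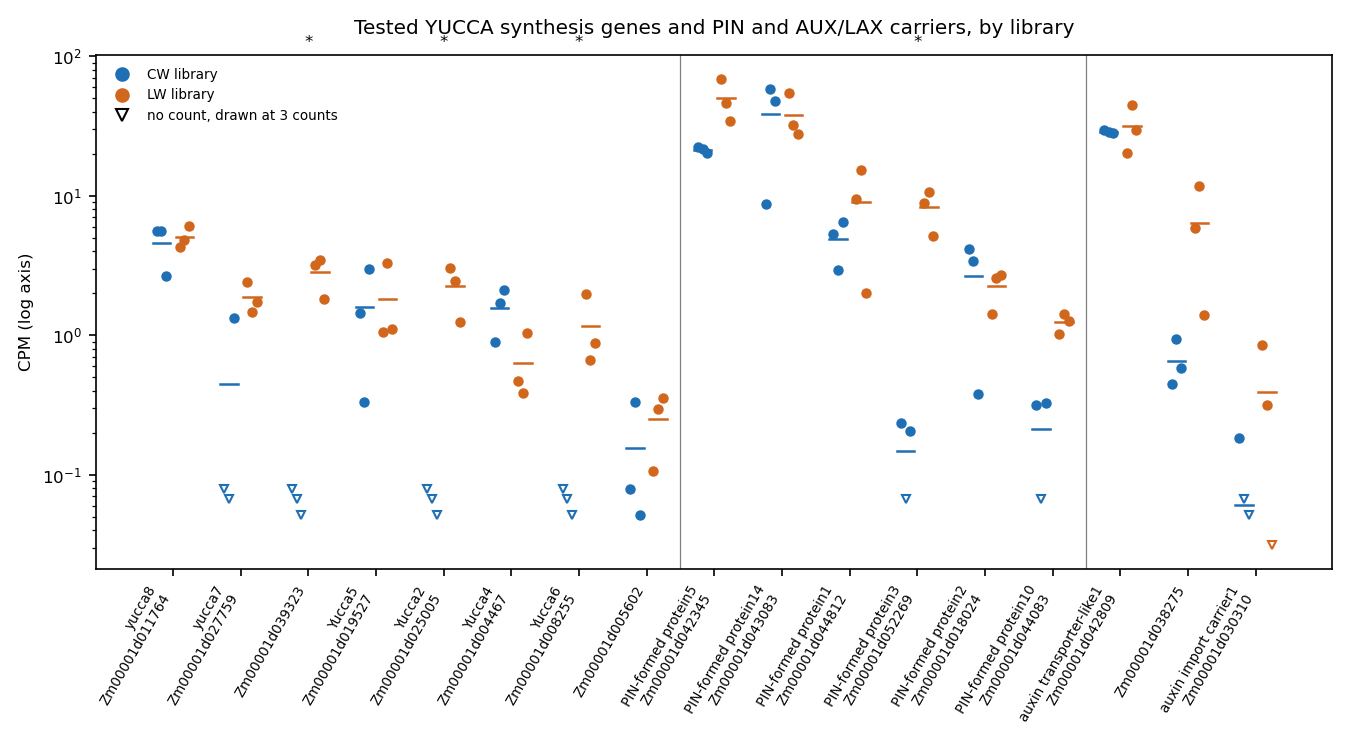
CPM (log axis) of the tested YUCCA genes (left), PIN carriers (middle) and AUX/LAX carriers (right) in each CW library (blue) and LW library (orange). Bars are group means, an asterisk marks a gene that passed the test, and open triangles are libraries with no count, drawn at 3 counts. The 3 marked YUCCA genes have no CW count, and PIN-formed protein3 lies at 0.236 CPM or less in CW and at 5.17 to 10.7 CPM in LW.

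Among genes named for auxin conjugation and breakdown, 1 hydrolase rose and the GH3 genes lay on the LW side without passing. Some hydrolases of this family release free IAA from its amino acid conjugates, as known from Arabidopsis. Which of the genes here do so was not tested. Of 23 genes of conjugation and breakdown, 16 were tested, 1 was higher and 15 did not pass. The group's median log2 fold change was 0.52. The IAA-amino acid hydrolase ILR1-like 4 gene Zm00001d043701 (chromosome 3, 207872999 to 207876887) stood at 29.7, 30.7 and 16.8 CPM in CW and at 120.5, 120.8 and 104.3 CPM in LW. Every LW library thus held over 3 times the highest CW value, a 4.48-fold rise of the fitted mean (log2 fold change 2.16, SE 0.30, edgeR adjusted p = 0.0221). It had the smallest adjusted p of all auxin genes tested. A further gene of the same description, Zm00001d044225, named after its values were seen, overlapped between the groups at 75.4 ± 6.70 CPM in CW and 108.0 ± 30.8 in LW (edgeR adjusted p = 0.303).

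Hydrolase genes were also the most abundant of this group. ILR1-like 6 (Zm00001d014562), with a mean FPKM of 58.2, stood at 194.6, 55.7 and 78.0 CPM in CW and 145.7, 73.2 and 201.3 CPM in LW. The spread within each group exceeded the difference between them (log2 fold change 0.36, SE 0.55, edgeR adjusted p = 0.739). Of 8 tested hydrolase genes, 6 had a positive and 2 a negative fitted change, and their summed level was 301.7 ± 97.1 CPM in CW and 464.0 ± 113 in LW, with overlap.

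GH3 genes encode amido synthetases, some of which join amino acids to IAA. Which of the genes here do so was not tested. All 5 tested of 10 had a positive fitted change, with a median of 1.60 on the log2 scale, but none passed the test, and 2 had a p under 0.05 without adjustment, as did 24.7% of all tested genes. Summed, they gave 25.0, 13.9 and 48.9 CPM in CW and 61.9, 105.4 and 77.2 CPM in LW, without overlap. Most of that came from GH3.6 (Zm00001d008957, named after its values were seen), at 9.35, 7.25 and 38.1 CPM in CW and 39.4, 72.3 and 54.0 CPM in LW (edgeR adjusted p = 0.183). CW replicate 3 lay next to the lowest LW library for this gene and well above the other CW libraries. The indole-3-acetate beta-glucosyltransferases, which link IAA to glucose, did not share a direction: 1 of 3 tested had a positive and 2 a negative fitted change, and none passed. The one with the largest difference, Zm00001d043165, named after its values were seen, stood at 36.0, 35.6 and 4.41 CPM in CW and 4.93, 4.19 and 9.36 CPM in LW, so that CW replicate 3 again lay with the LW libraries.

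**Figure D3:**
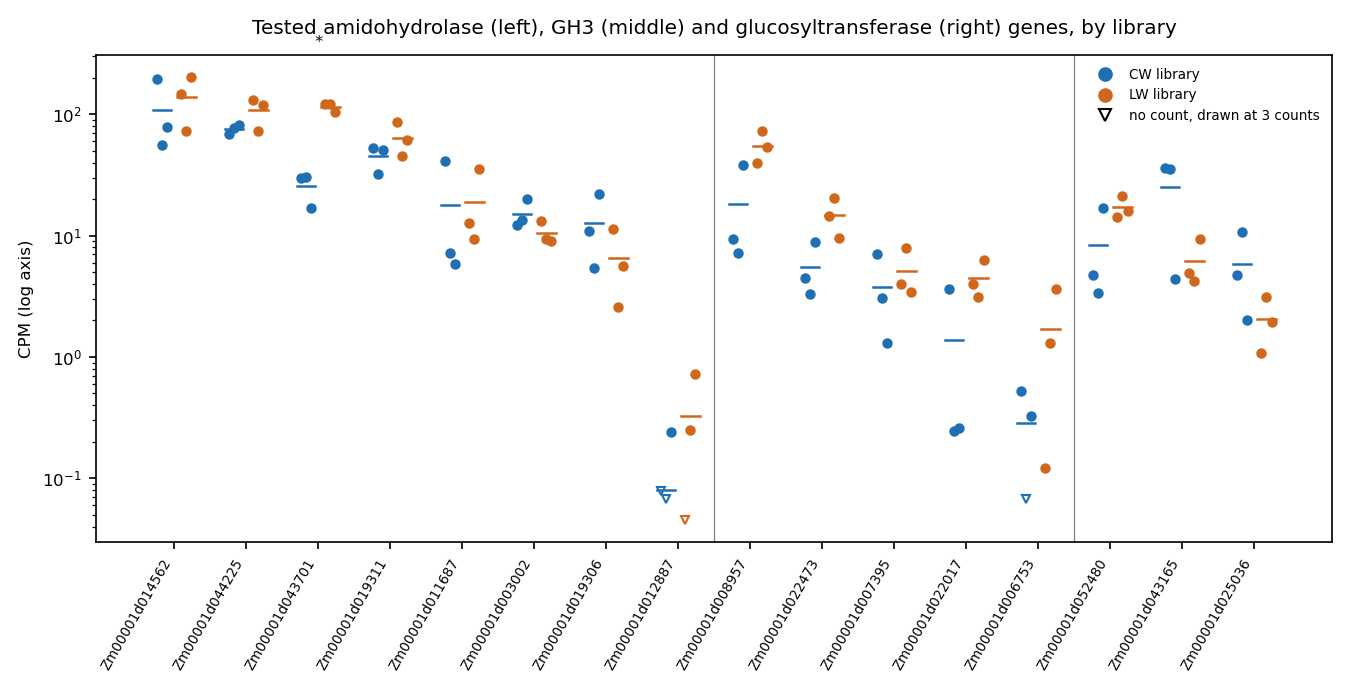
CPM (log axis) of the tested genes of auxin conjugation and breakdown in each CW library (blue) and LW library (orange), with hydrolases on the left, GH3 genes in the middle and glucosyltransferases on the right, each by falling mean FPKM. Bars are group means, an open triangle is a library with no count and the asterisk marks Zm00001d043701, at 16.8 to 30.7 CPM in CW and 104.3 to 120.8 CPM in LW.

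Of the carriers, 1 PIN gene went from near 0 in CW to a low level in LW. PIN proteins export auxin from cells and give its flow a direction, and AUX/LAX proteins import it. Of 19 transport genes, 10 were tested, 1 was higher, none was lower and 9 did not pass. PIN-formed protein3 (Zm00001d052269, chromosome 4, 185371637 to 185375098) had 9, 0 and 12 counts in CW replicates 1 to 3 and 587, 978 and 495 in LW. In CPM these were 0.236, 0 and 0.206 against 8.94, 10.7 and 5.17, a fitted log2 fold change of 5.79 (SE 1.07, edgeR adjusted p = 0.0348). The size of that fold rests on few CW counts and is imprecise, while the groups lie far apart.

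PIN-formed protein5 (Zm00001d042345, chromosome 3, 162347553 to 162351683) was the most abundant carrier, with a mean FPKM of 19.7 and 38.2% of the FPKM of the transport genes. It stood at 22.4, 21.5 and 20.2 CPM in CW and 69.0, 45.9 and 34.4 CPM in LW. The groups did not overlap, but the gene missed the threshold (log2 fold change 1.22, SE 0.30, edgeR adjusted p = 0.0628). It overlaps a gene on the other strand, and since the sources used here do not say whether counting used strand, reads of the pair cannot be told apart. Of 6 tested PIN genes, 4 had a positive and 2 a negative fitted change. Of these 6 genes, 3 (50%) were separated with LW higher, against 19.7% of all tested genes. All 3 tested AUX/LAX genes had a positive fitted change and none passed. The nearest was Zm00001d038275, named after its values were seen, at 0.447, 0.937 and 0.584 CPM in CW and 5.89, 11.7 and 1.39 CPM in LW (edgeR adjusted p = 0.0680). BIG (Zm00001d019881, also named after its values were seen), a very large protein needed for auxin transport in Arabidopsis, hardly differed in mean, at 199.4 ± 21.7 CPM in CW and 198.8 ± 28.8 in LW (edgeR adjusted p = 0.994). Scaled by library totals in place of TMM, all 10 tested transport genes had a positive fitted change, against 7 with TMM.

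The Aux/IAA repressor genes had the highest summed level of all groups, a mean FPKM of 968.5 beside 450.8 for SAUR genes, and 1 of the family's more abundant members fell. Of 40 Aux/IAA genes, 27 were tested, 1 was lower, none was higher and 26 did not pass. In 7 genes (25.9% of those tested) every LW value lay below every CW value, against 14.9% of all tested genes. In 4 (14.8%) every LW value lay above, against 19.7%. The 1 that fell was Aux/IAA-transcription factor 36 (Zm00001d009532, described as IAA19, chromosome 8, 69164642 to 69168927). It stood at 52.5, 97.8 and 45.6 CPM in CW and at 21.6, 21.5 and 22.7 CPM in LW, falling 2.98-fold (fitted log2 value -1.57, SE 0.33, edgeR adjusted p = 0.0442). The LW values were close to each other, and the spread lay in CW. With libraries scaled by totals its adjusted p was 0.0625 and no auxin gene was called lower.

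All 10 Aux/IAA genes whose mean FPKM was 10 or more had a negative fitted change, from -1.57 to -0.26 on the log2 scale. Of them, 5 were separated with LW lower, as were 14.9% of all tested genes. Among all 38 tested auxin genes at that level, these 10 included, 20 had a negative fitted change and 10 were separated with LW lower. The cut at 10 was chosen with earlier results known. Of the 17 less abundant Aux/IAA genes, 10 had a positive and 7 a negative fitted change. With libraries scaled by totals, 9 of the 10 abundant genes still had a negative change, with a median of -0.45 against -0.82 with TMM. Of the 10, 1 passed the test. Aux/IAA-transcription factor 32 (Zm00001d018973, described as IAA24) alone held 51.6% of the FPKM of the family. It stood at 874.2, 951.1 and 654.0 CPM in CW and at 308.0, 526.6 and 378.7 CPM in LW, without overlap, but missed the threshold (log2 fold change -1.03, SE 0.32, edgeR adjusted p = 0.101). Aux/IAA-transcription factor 8 (Zm00001d039624, described as IAA15), the next in level and named after its values were seen, stood at 348.4, 320.5 and 313.0 CPM in CW and 182.3, 170.9 and 108.3 CPM in LW (edgeR adjusted p = 0.0681).

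**Figure D4:**
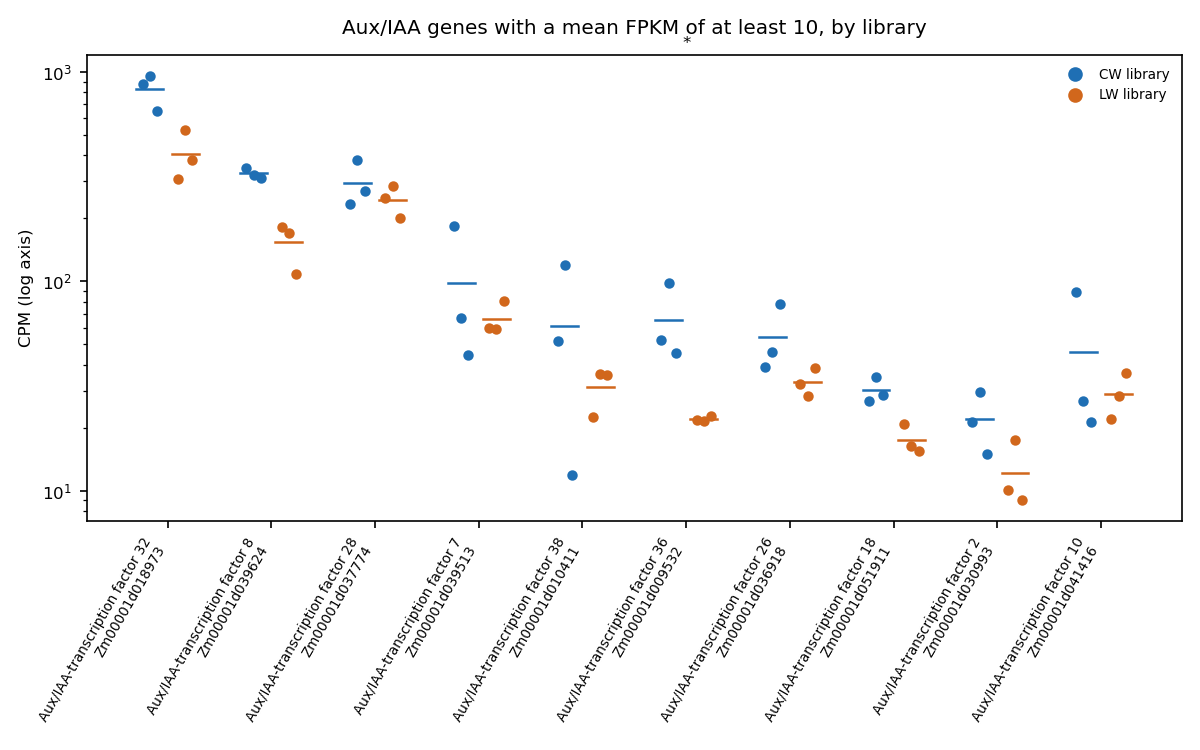
CPM (log axis) of the 10 Aux/IAA genes whose mean FPKM was 10 or more in each CW library (blue) and LW library (orange), by falling mean FPKM. Bars are group means and the asterisk marks Aux/IAA-transcription factor 36, the 1 that passed the test. The LW mean lies below the CW mean in every gene shown, and the groups overlap in 5 of them.

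A few low Aux/IAA genes went the other way without passing. Aux/IAA-transcription factor 37 (Zm00001d010360, described as IAA26) had no count in CW replicates 1 and 2, 0.532 CPM in CW replicate 3 and 3.76, 3.42 and 3.96 CPM in LW. The groups lay apart, and the fitted log2 fold change of 4.33 had an SE of 1.63 (edgeR adjusted p = 0.157). This gene depends on CW replicate 3, without which the log2 fold change was 10.96 (edgeR adjusted p = 0.0179), and it passed with all libraries in DESeq2 (adjusted p = 0.0294) and in limma (adjusted p from 0.00745 to 0.0142). Aux/IAA-transcription factor 41 (Zm00001d045203, described as IAA29), named after its values were seen, had no CW count and 0.518, 0.953 and 0.981 CPM in LW, at least 12.4-fold above the floor (edgeR adjusted p = 0.0551). Summed over the family, the level was 2020, 2154 and 1543 CPM in CW and 1040, 1281 and 1020 CPM in LW, without overlap and at 0.584 times the CW mean. Scaled by totals the sums overlapped, at 1403 to 1839 CPM in CW and 1096 to 1544 CPM in LW.

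ARF genes, for DNA-binding factors of which Aux/IAA proteins repress some, mostly did not pass the test. Of 39, 31 were tested, 1 was higher, none was lower and 30 did not pass. The family's median log2 fold change was 0.18. ARF-transcription factor 3 (Zm00001d001879, chromosome 2, 2248003 to 2255953) is described as Auxin response factor 3, whose Arabidopsis namesake acts in leaf and flower polarity. It stood at 23.8, 21.3 and 11.0 CPM in CW and 62.4, 88.0 and 60.3 CPM in LW, a 3.75-fold rise without overlap (log2 fold change 1.91, SE 0.35, edgeR adjusted p = 0.0347). The other 4 tested ARF genes of that description did not pass, with fitted changes from -0.59 to 0.75. The most abundant, ARF-transcription factor 10 (Zm00001d042267, mean FPKM 49.5), stood at 192.3, 217.0 and 188.2 CPM in CW and 137.7, 180.2 and 90.5 CPM in LW. It was the only ARF gene separated with LW lower (log2 fold change -0.55, SE 0.30, edgeR adjusted p = 0.310).

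ARF-transcription factor 20 (Zm00001d015243) had the largest fitted change among ARF genes that reached a mean FPKM of 1 in a group. It had no count in CW replicates 1 and 2, 1.96 CPM in CW replicate 3 and 7.58, 9.67 and 3.59 CPM in LW (edgeR adjusted p = 0.282). It also overlaps a gene on the other strand. ARF-transcription factor 35 (Zm00001d014690, described as Auxin response factor 7), named after its values were seen, stood at 39.2, 24.4 and 17.9 CPM in CW and 105.7, 51.8 and 120.8 CPM in LW (edgeR adjusted p = 0.0591). The summed level of the family, 1394 ± 41.6 CPM in CW and 1589 ± 191 in LW, overlapped between the groups. Scaled by totals the sums did not overlap, at 1167 to 1279 CPM in CW and 1482 to 2154 CPM in LW.

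SAUR genes, small early response genes of which some promote cell expansion, were mostly low and none passed the test. Of 73, 27 were tested, 46 were not and 27 had no count in any library. In 6 (22.2% of those tested) every LW value lay above every CW value, against 19.7% of all tested genes. In 2 (7.41%) every LW value lay below, against 14.9%. A single gene held 68.9% of the FPKM of the family, Zm00001d032475 (described as SAUR56, chromosome 1, 227990837 to 227991226). It stood at 40.1, 32.4 and 118.9 CPM in CW and 268.5, 116.6 and 191.0 CPM in LW. The groups overlapped only through CW replicate 3 and LW replicate 2 (log2 fold change 1.59, SE 0.56, edgeR adjusted p = 0.138). With this gene the family's sum was 162.4 ± 63.0 CPM in CW and 263.2 ± 80.4 in LW, and without it 98.6 ± 16.4 and 71.2 ± 5.92, so its direction turns on 1 gene.

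Tested SAUR genes went both ways, 16 with a positive and 11 with a negative fitted change. DESeq2 called 4 higher (14.8%, against 9.8% of all genes) and 1 lower (3.7%, against 8.24%). The 4 were Zm00001d032475 and, named after their values were seen, Zm00001d002374, Zm00001d013869 and Zm00001d018200, and the 1 was Zm00001d051302. Zm00001d051302 (described as SAUR11 and named after its values were seen) came nearest to the threshold, at 23.6, 35.4 and 17.9 CPM in CW and 3.76, 9.69 and 7.51 CPM in LW (edgeR adjusted p = 0.0566). Zm00001d021456 (described as SAUR55) had the largest fitted change among members that reached a mean FPKM of 1 in a group, a log2 fold change of -2.44 with an SE of 1.38, from 0.657, 1.16 and 0.172 CPM in CW to 0.289, 0.0438 and 0.0313 CPM in LW (edgeR adjusted p = 0.323). It lies in a run of 5 SAUR genes on chromosome 7 (152609402 to 152720386), of which 4 were tested, all with a negative fitted change and overlapping groups. The longest run, 8 SAUR genes on chromosome 2 (203395420 to 203554453), held 1 tested gene and 3 with no count at all. SAUR genes span a median of 438 bases in the table, against 2045 for all its rows, and neighbouring copies may share reads, so the split of counts between them is uncertain.

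Of the 40 other genes, 20 were tested and none passed, with 4 at a p under 0.05 without adjustment, against 24.7% of all tested genes. Summed, they gave 730.7, 632.0 and 579.1 CPM in CW and 522.9, 524.3 and 532.1 CPM in LW, without overlap and at 0.813 times the CW mean. Scaled by totals, the sums overlapped and the ratio was 1.04. The 3 described as AUXIN SIGNALING F-BOX 3, auxin receptors that mark Aux/IAA proteins for degradation, all had a negative fitted change, from -0.56 to -0.27. Their summed level overlapped between the groups, at 199.4 ± 44.7 CPM in CW and 149.5 ± 22.9 in LW. The most abundant gene, an auxin-like 1 protein (Zm00001d039120), stood at 295.7, 224.6 and 120.1 CPM in CW and 109.2, 178.1 and 138.8 CPM in LW (log2 fold change -0.59, SE 0.38, edgeR adjusted p = 0.388). An auxin-inducible protein (Zm00001d042574) stood at 2.81, 1.45 and 1.87 CPM in CW and 10.3, 2.02 and 8.92 CPM in LW, where LW replicate 2 lay among the CW values (log2 fold change 1.79, SE 0.67, edgeR adjusted p = 0.151). Auxin-binding protein 4 (Zm00001d023904, named after its values were seen) was separated with LW lower, at 40.4 ± 11.6 CPM in CW and 21.4 ± 2.43 in LW (edgeR adjusted p = 0.0945).

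A list of 93 further pathway genes, whose rows carry none of the words used for the search, was read in the same fit. Of 68 tested, 3 were higher (4.41%, background 2.84%), 1 was lower (background 2.40%) and 64 did not pass. The 3 were of the ABCB family, some of whose members carry auxin. ABC transporter B family member 21 (Zm00001d040562) stood at 21.3, 11.8 and 15.1 CPM in CW and 64.9, 46.9 and 58.9 CPM in LW, a 3.54-fold rise (edgeR adjusted p = 0.0292). Member 19 (Zm00001d026426), whose Arabidopsis namesake exports auxin in the stem, rose 9.23-fold, from 0.604, 0.625 and 2.03 CPM to 11.8, 6.46 and 12.0 CPM (edgeR adjusted p = 0.0395). Member 15 (Zm00001d053706) rose 6.86-fold, from 1.58, 0.424 and 0.687 CPM to 6.38, 5.54 and 6.48 CPM (edgeR adjusted p = 0.0479). Among 25 tested ABCB genes, 18 had a positive and 7 a negative fitted change, against 12987 and 11717 of all 24704 tested genes. The 3 called made up 12% of the 25.

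The gene that fell was Zm00001d039654, described as the protein kinase PINOID 2, from a kinase family that in Arabidopsis phosphorylates PIN carriers. It stood at 24.6, 49.8 and 29.3 CPM in CW and at 6.45, 6.45 and 9.85 CPM in LW, falling 4.56-fold without overlap (log2 fold change -2.19, SE 0.37, edgeR adjusted p = 0.0305). At the step before YUCCA, none of 3 tested tryptophan aminotransferase genes passed. Vanishing tassel2 (Zm00001d008700, named after its values were seen), the maize gene known for auxin synthesis in the tassel, stood at 38.0 ± 24.0 CPM in CW and 37.3 ± 16.5 in LW (edgeR adjusted p = 0.984). None of the tested genes for tryptophan synthesis (17), nitrilases (3), TOPLESS-type corepressors (5) and subunits of the receptor complex (10) passed. The most abundant of all, SKP1-like protein 1A (Zm00001d049230), stood at 272.4, 248.3 and 229.4 CPM in CW and 228.5, 193.0 and 201.9 CPM in LW (log2 fold change -0.27, SE 0.23, edgeR adjusted p = 0.518), but its fitted change was positive, 0.09, when libraries were scaled by totals. Barren inflorescence1 (Zm00001d008749, named after its values were seen), an Aux/IAA gene known from the maize inflorescence, was separated with LW lower, at 16.8 ± 2.40 CPM in CW and 5.78 ± 2.54 in LW (edgeR adjusted p = 0.0720).

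**Figure D5:**
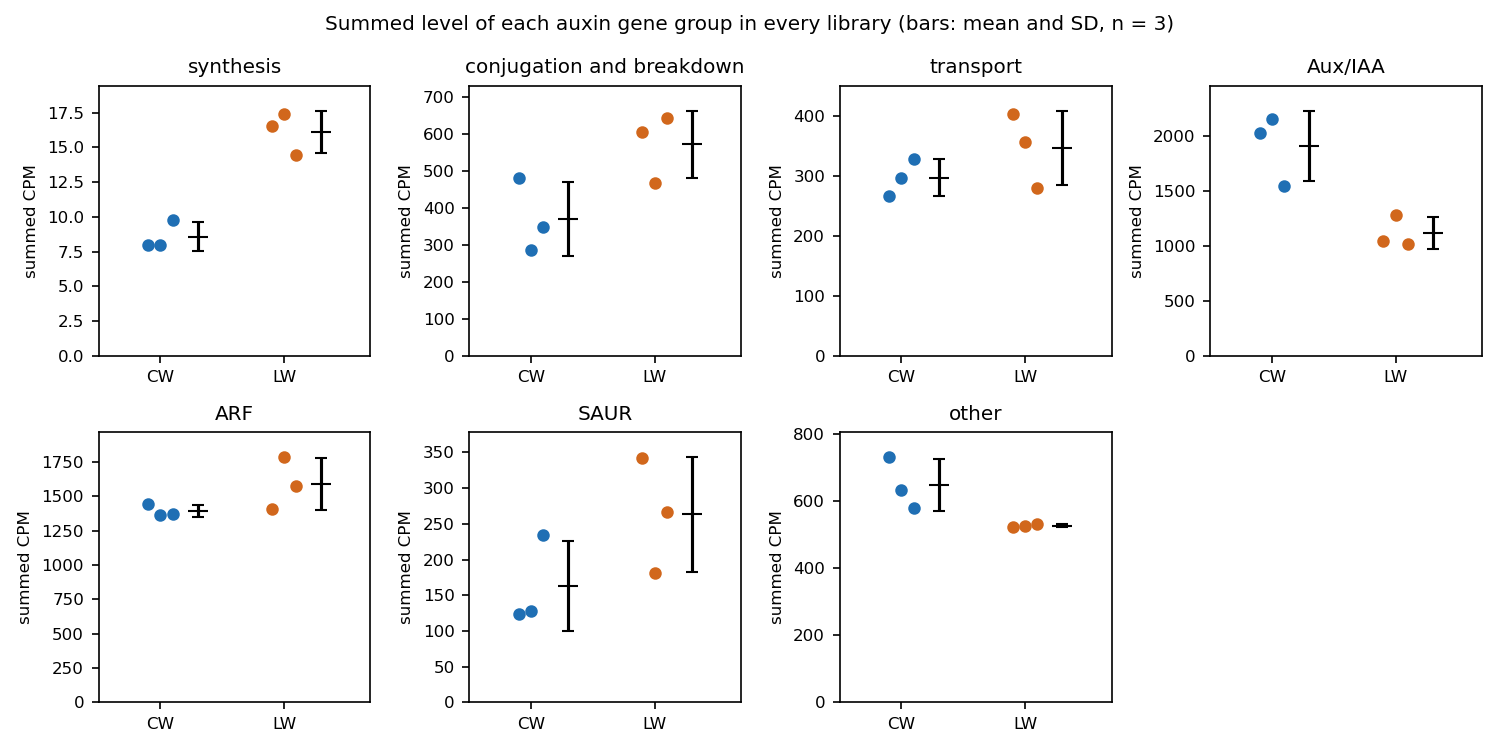
Summed CPM of each group of auxin genes in every library (y axes from 0), with the mean and SD of 3 libraries at the side of each group. The sums of CW and LW do not overlap for synthesis (LW higher), Aux/IAA and the other genes (LW lower), and they overlap for transport, conjugation and breakdown, ARF and SAUR. For synthesis the separation rests on the called genes that have no CW count. For other groups it depends on the scaling. Scaled by totals, the sums for transport, conjugation and breakdown, ARF and SAUR did not overlap, with LW higher. Those of Aux/IAA and the other genes then overlapped.

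Of the 249 members, 67 (26.9%) had no count in any library, against 33.3% of all rows. By group the silent share ran from 10.3% of ARF genes to 37.0% of SAUR genes. A count in every LW library and in no CW library was seen in 9 members (3.61%, against 1.57% of all rows), and the reverse in 0 members (22 of all rows). These 9 were 3 YUCCA, 2 Aux/IAA and 4 SAUR genes, all at a low level. LW replicates 2 and 3 were deeper than every CW library, and LW replicate 1 less deep than CW replicate 3. The part of depth in this count was not tested. The table's KEGG orthology terms cover 81 of the members. They name 20 Aux/IAA genes under K14484 and 7 ARF genes under K14486. Genes of conjugation and breakdown are divided over several terms, with 4 under K14487, 2 under K14506, 6 under K14664 and 2 under K21604.

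Markers of leaf tissue were present in every library but lay far apart between the groups. They were genes for Rubisco small subunits, chlorophyll a-b binding proteins, carbonic anhydrases, malic enzymes and phosphoenolpyruvate carboxylase1. Together they summed to between 33668 and 69335 CPM in CW and between 7970 and 10667 CPM in LW. Of 39 tested, 13 were lower, against 2.40% of all tested genes, and none was higher. All 13 lay among the 15 tested genes for Rubisco small subunits and chlorophyll a-b binding proteins, all of which had a negative fitted change. The 24 tested genes for the other enzymes had 14 positive and 10 negative fitted changes. Of these genes, 7 were separated with LW higher and 2 with LW lower, against 19.7% and 14.9% of all tested genes. Their sums overlapped, at 2781 to 4248 CPM in CW and 2063 to 5505 CPM in LW. Markers of dividing cells, without the knotted genes of that list, were histones, cyclins and PCNA. Of 40 tested, 2 were lower, against 2.40% of all tested genes, and 22 had a positive and 18 a negative fitted change. These markers summed to 1009 to 1099 CPM in CW and 748.3 to 875.3 CPM in LW, without overlap. Scaled by totals the sums overlapped, at 901.3 to 975.0 and 852.7 to 984.0 CPM. The list's 3 knotted genes were nearly all knotted1 induced1, which overlapped between the groups at 709.0 to 2305 CPM in CW and 1030 to 1551 CPM in LW. Of 4 root markers 1 was tested, and their sum was 20.4 ± 1.90 CPM in CW and 20.3 ± 1.39 in LW; rootless concerning crown and seminal roots1 stood at 0. The part of these differences in the auxin results was not tested.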

How the data were processed

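Leaf RNA of 6 libraries (LW and CW, 3 each) was sequenced as paired ends, per the labels' protocols. Besides poly(A) beads they mention poly(A)- RNA and adipose tissue, so how RNA was selected is unclear. Tools named in the submitters' processing notes, without roles, are StringTie 1.3.4, HISAT2 2.0, FastQC 0.10.1 and edgeR. The sources used here give no genome build, annotation release or strand setting, and positions are as deposited. Groups follow the sample titles, although 1 source name, that of CW replicate 2, has another replicate's number. Whether replicates are separate plants is not stated, so p-values reflect only how far these samples spread, in part perhaps technically.

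The authors deposited an FPKM value (per length and library) and a count per gene and library. Of the counts from 1 to 40, 28.6% to 31.4% per library are multiples of 4, so the deposited counts were treated as estimated counts, and no counting interval is given. The floor of 3 counts per library covers counting error only. Gene names and roles come from the table's names and descriptions. For 13 members the span overlaps another gene, for 11 of them on the other strand.

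Counts were tested with edgeR 4.0.16 in R 4.3.3 (TMM factors, filterByExpr defaults, glmQLFit and glmQLFTest, group as the only term), with Benjamini-Hochberg adjustment over all 24704 genes kept and a threshold of 0.05. The script was tested on simulated data. At the fitted dispersion, with 50 changed genes per fold, it recovered 2 at 2-fold, 14 at 4-fold, 39 at 8-fold and 41 at 16-fold. Genes that did not pass may thus still differ, most of all by small folds. Alternatives were DESeq2 1.42.0, scaling by totals, no filter, limma 3.58.1 on log2(FPKM + 1) or log2(FPKM + 0.1), each library left out, and the replicate number as a block. Single quantities such as sums are given without a test, since an exact test of 3 against 3 values cannot go below p = 0.1. Every pair of libraries differed by more than counting noise.

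Members, groups, marker lists and tests were chosen with earlier results of these data known, and groups are described by counts and medians alone. Rows matched by chance inside other words were removed from the further lists after the names were read. Named genes are, in each group, up to 4 called members by smallest adjusted p, the member with the highest mean FPKM, and the tested member with the largest absolute log2 fold change among those whose group with the higher level reached a mean FPKM of 1. For the further pathway genes they are up to 6 called ones and the most abundant.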

Additional observations from a re-analysis of the deposited data

How the results depend on the processing

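For the genes named by rule, the calls depend on the libraries and the test more than the directions do. Of the auxin genes, DESeq2 called 17 higher and 10 lower, edgeR on libraries scaled by totals 11 and 0, edgeR with no filter on low counts 5 and 1, limma on log2(FPKM + 1) 11 and 0 (12 and 0 with no filter), and limma on log2(FPKM + 0.1) 9 and 0, against 6 and 1. As shares of those tested, the higher calls were 12.2%, 7.91%, 2.75%, 10% (6.59%) and 8.18%, beside 9.8%, 5.77%, 2.26%, 12.7% (6.36%) and 8.94% of all genes. The lower calls were 7.19% in DESeq2, beside 8.24% of all genes, 0.549% with no filter, beside 1.84%, and none with totals and in limma, beside 1.4% to 3.17%. The 7 calls of the report all passed in DESeq2, 6 passed with totals and 6 with no filter. Both filtered limma fits tested 4 of the 7, without the YUCCA genes, and 3 passed, all but Aux/IAA-transcription factor 36. Unfiltered limma tested all 7, and 5 passed. Leaving out 1 library gave 0 to 17 higher and 0 to 5 lower (0 to 6 and 0 to 5 of the further pathway genes), and only the fit without CW replicate 3 called any auxin gene. Of all genes, the fits without 1 library called 0% to 6.79% higher and 0% to 5.21% lower. Those fits had 25 to 49 auxin genes at an unadjusted p under 0.05, against 35. Of the further pathway genes, DESeq2 called 6 higher and 7 lower of 68 tested, and limma on log2(FPKM + 1), on log2(FPKM + 0.1) and unfiltered 9, 7 and 9 higher and 1 lower each, against 3 and 1. Over all genes, DESeq2 called 9.8% higher and 8.24% lower. The limma fits, in the same order, called 12.7%, 8.94% and 6.36% of all genes higher and 3.17%, 2.08% and 1.54% lower.

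Scaling by totals moved the median log2 fold change of all genes from 0.06 to 0.42, and the group medians with it: ARF 0.55, Aux/IAA -0.0099, conjugation and breakdown 0.85 and the others -0.041. Limma on log2(FPKM + 1) gave 0.55 for ARF, 0.028 for Aux/IAA (0.031 with no filter) and 0.057 for the others (0.067 with no filter), and with a pseudocount of 0.1 it gave 0.68, 0.034 and 0.15. With no filter on low counts the medians were 1.05 for conjugation and breakdown, 0.019 for the others, 1.53 for SAUR and 2.53 for transport. Over fits without 1 library they ran from -0.52 to -0.038 for Aux/IAA, from 0.42 to 1.16 for conjugation and breakdown, from -0.41 to -0.067 for the others and from 0.94 to 5.17 for synthesis.

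Of the genes named by rule, those reversed were yucca8 (-0.15 without CW replicate 3 and -0.03 without LW replicate 3, of a range up to 0.292), Zm00001d014562 (-0.0003 without LW replicate 3, of a range up to 1.07) and Zm00001d049230 (0.088 with totals and 0.082, 0.083 and 0.082 in limma). None of these had passed the test, and the cause was not tested. Other members also changed direction with totals. Of tested members with a mean FPKM under 10, 62 were positive and 39 negative with TMM, and 71 and 30 with totals. For those at 10 or more the numbers were 18 and 20 with TMM, and 21 and 17 with totals.

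Same-numbered libraries of the groups did not deviate together (correlations -0.03, 0.0008 and -0.23, beside -0.11 to 0.17 for differently numbered ones). With 3 libraries per group, such values cannot show whether the numbers pair libraries, and the labels do not say. With the replicate number as a block, 0 auxin genes and 0 further pathway genes were called in either direction, with 33 auxin genes at an unadjusted p under 0.05, and the medians were -0.19 for the others and 3.35 for synthesis. Low counts limit the YUCCA, SAUR and minor Aux/IAA genes most.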
